A study of Mus musculus with 10 samples.

Results

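Homologous recombination genes were followed as a set of 9 in mouse embryonic stem cells: Rbbp8, Brca1, Bard1, Palb2, Brca2, Xrcc2, Xrcc3, Rad52 and Rad54l. They were chosen by name, and the rule uses no measured value: each symbol was matched to its Ensembl gene in the GENCODE vM21 annotation. All 9 were found among the 55487 genes of the RNA-seq tables. The series holds 10 samples of the E14 embryonic stem cell line in 6 groups, of which 7 samples map R-loops (RNA paired with one DNA strand) and were not analysed here. The group used here is the RNA-Seq group, 3 replicates of E14 cells with no treatment or genetic change named in the labels, grown in 15% FBS with LIF, 3 µM of a GSK inhibitor and 1 µM of an MEK1/2 inhibitor. E14 is one established line, and the labels do not say whether the replicates were separate cultures, so every error below is the spread between these samples, which may be technical. With 1 group there was no comparison of conditions, and the comparisons are between genes, their transcripts and their neighbours within the 3 libraries.

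Homologous recombination repairs a double-strand break by copying an intact sister sequence. The broken ends are first trimmed to single strands, which the BRCA proteins help to load with the factors of strand exchange, and the loaded strand invades the sister duplex. Embryonic stem cells divide quickly, spend much of the cycle in S phase and are known for relying on this pathway.

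Of the 9 genes, 5 start within 1000 bp of a gene on the opposite strand and point away from it, so that a short stretch of DNA lies between both starts. An opposite-strand start within 1000 bp, with no condition on direction, was present for 29.2% of the 9683 expressed protein-coding genes. Expressed here means a mean level of at least 1 TPM (a transcript level corrected for length and set to one common sum per library). The stretches are shown because they are the sequence that each gene shares with its neighbour, whose expression is given further on. They are RefSeq sequence of build GRCm38.p6, read 5′ to 3′ on the strand of the recombination gene. Capitals mark CCAAT and GGGCGG, on either strand.
Brca1 and Nbr1, chr11:101551956-101552148, minus strand: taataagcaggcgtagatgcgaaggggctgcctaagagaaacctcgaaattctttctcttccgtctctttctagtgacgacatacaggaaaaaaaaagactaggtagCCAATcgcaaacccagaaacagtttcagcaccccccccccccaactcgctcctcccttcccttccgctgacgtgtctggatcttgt
Palb2 and Dctn5, chr7:122132986-122133040, minus strand: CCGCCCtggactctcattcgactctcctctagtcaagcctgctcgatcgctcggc
Rad52 and 4930540M05Rik, chr6:119902654-119902697, plus strand: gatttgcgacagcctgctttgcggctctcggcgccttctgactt
Rad54l and Pomgnt1, chr4:116123691-116123839, minus strand: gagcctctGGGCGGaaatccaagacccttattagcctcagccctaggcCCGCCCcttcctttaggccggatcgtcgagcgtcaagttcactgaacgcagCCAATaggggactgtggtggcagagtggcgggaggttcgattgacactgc
Xrcc3 and Zfyve21, chr12:111813874-111814129, minus strand: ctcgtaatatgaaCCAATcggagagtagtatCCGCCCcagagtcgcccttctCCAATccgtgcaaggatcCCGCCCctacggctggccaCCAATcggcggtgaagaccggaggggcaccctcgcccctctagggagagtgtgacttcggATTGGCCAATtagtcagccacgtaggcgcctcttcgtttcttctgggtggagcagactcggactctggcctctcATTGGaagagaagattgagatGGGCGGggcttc
The Xrcc3 entry holds the 256 of 296 bases that the promoter table covers, and the other entries are complete.

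Over the wider promoter windows (250 bases before to 50 after the RefSeq start, 7 of the 9 genes used), the median CpG count was 24 and the median GC content 59.7%. Over all 32851 promoter windows the medians were 7 and 52.7%. Those windows were not limited to expressed genes, whereas all 9 genes of the set were expressed. GGGCGG, the core of the GC box, was found on either strand in 5 of the 7 windows (Bard1, Palb2, Rad52, Rad54l and Xrcc3) and in 35.7% of all windows. CCAAT was found in 4 of the 7 (Brca1, Palb2, Rad54l and Xrcc3) and in 37.4% of all. The ETS-type motif CCGGAAGT was in the Palb2 window alone among the 7, TATAAA in that of Brca2 and TTTGAA in that of Bard1, against 3.89%, 13.6% and 17.9% of all windows. TTTGGCGC, TTTCGCGC, GGCGGGAA and GCATGCGC were in none of the 7 windows and in 0.514%, 0.323%, 2.19% and 2.71% of all, which says only that these letters are not in these windows. All 9 motifs were searched on both strands. Matches that lie between both starts are those in capitals above, and matches of Palb2 and Rad52 that are not shown there lie elsewhere in the window.

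The libraries held 11420425, 6467405 and 5787357 estimated counts, so that 3 counts correspond to 0.263, 0.464 and 0.518 CPM (the count scaled to a fixed library total, with no length scaling). The third library stood apart. The common biological coefficient of variation from edgeR was 0.162 over the 3 libraries and 0.0906 without replicate 3. Genes with a mean count of at least 100 were also ranked by transcript length. The longest 10% of them had a median log2 CPM deviation of -0.27 from their own mean in replicate 3. All 8 pluripotency markers were expressed, from Klf4 at 16.6 to Dppa5a at 554 TPM, and their summed level was 1200, 1136 and 918 TPM in replicates 1, 2 and 3. The summed level of all protein-coding genes fell as well, at 228870, 186079 and 173291 TPM. Of 7 fibroblast or feeder markers only Thy1 reached a mean of 1 TPM, Col3a1, Dcn, Lum and Postn had 0 counts in every replicate, and the summed level was 1.24 to 3.37 TPM. None of 4 extraembryonic endoderm markers reached 1 TPM, with Gata4 highest at 0.45. The samples are bulk RNA, in which fewer cells expressing a gene and less RNA per cell cannot be told apart.

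All 9 genes were expressed at a mean of at least 1 TPM, a level reached by 44.1% of the 21974 annotated protein-coding genes. Their levels were moderate. The median over the 9 genes was 6.12 TPM, and on the log2(TPM + 1) scale it was 2.66 ± 0.34 (SD, n = 3), against 2.72 ± 0.29 (SD, n = 3) for all expressed protein-coding genes. The highest was Brca2 and the lowest Xrcc3.

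The first group acts at the broken end. Rbbp8 (ENSMUSG00000041238, plus strand of chromosome 18, 11633276 to 11745221) encodes CtIP, which starts end trimming together with the MRE11 complex. It had 500, 312 and 269 estimated counts in replicates 1, 2 and 3, which gave 6.76, 5.71 and 5.89 TPM and a mean of 6.12 ± 0.56 (SD, n = 3). The 3 values lay close together, above those of 52.4% of expressed protein-coding genes by the mean.

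Brca1 (ENSMUSG00000017146, minus strand, chr11:101488764-101551955) encodes the ubiquitin ligase that promotes trimming. It had 1715, 925 and 932 counts and 10.68, 8.08 and 8.98 TPM, a mean of 9.25 ± 1.32 (SD, n = 3). Bard1 (ENSMUSG00000026196, minus strand, chr1:71027498-71103146) encodes the protein with which BRCA1 forms its heterodimer. It had 1411, 736 and 363 counts and 9.43, 7.03 and 3.46 TPM, a mean of 6.64 ± 3.00 (SD, n = 3). Replicate 3 was the low library for Bard1 and not for Brca1.

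The level of Brca1 relative to its partner therefore rested on 1 library. Brca1 exceeded Bard1 in 3 of 3 replicates, but the TPM ratio was 1.13 and 1.15 in replicates 1 and 2 and 2.60 in replicate 3. On the log2(TPM + 1) scale the difference was 0.50 ± 0.57 (SD, n = 3), and it was 0.17 without replicate 3. The ranges of both genes overlapped. An exact two-sided sign-flip test over 3 replicates cannot go below p = 0.25, so no p is given for this or the other differences within pairs.

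The second group prepares the single strand for exchange. Palb2 (ENSMUSG00000044702, minus strand, chr7:122107262-122132985) encodes the bridge between BRCA1 and BRCA2, and had 486, 262 and 221 counts. Its levels were 5.91, 4.75 and 3.83 TPM, with a mean of 4.83 ± 1.04 (SD, n = 3). Brca2 (ENSMUSG00000041147, plus strand, chr5:150522630-150570329) encodes the mediator that acts on single-stranded DNA before strand exchange, and had 2577, 1345 and 796 counts. At 16.02, 12.09 and 11.18 TPM, with a mean of 13.1 ± 2.57 (SD, n = 3), it lay above 76.1% of expressed protein-coding genes.

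Brca2 exceeded Palb2 in every replicate and the ranges did not overlap. The difference on the log2(TPM + 1) scale was 1.30, 1.19 and 1.33, a mean of 1.27 ± 0.08 (SD, n = 3). With one fixed length per gene, an alternative added after the data had been seen, the difference was 1.25 ± 0.33 (SD, n = 3), so its small spread rested on the deposited lengths.

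The third group supports strand exchange in complexes of related proteins. Xrcc2 (ENSMUSG00000028933, minus strand, chr5:25689812-25705825), had 330, 183 and 178 counts and 4.28, 3.51 and 3.59 TPM, a mean of 3.79 ± 0.42 (SD, n = 3). Xrcc3 (ENSMUSG00000021287, minus strand, chr12:111803192-111813873), which belongs to a different such complex, had 122, 55 and 44 counts and 3.96, 1.81 and 1.45 TPM. Its mean was 2.41 ± 1.36 (SD, n = 3), above only 21.3% of expressed protein-coding genes. Replicate 1 was the high library for Xrcc3, and there it came within the range of Xrcc2.

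Xrcc2 exceeded Xrcc3 in 3 of 3 replicates, by 0.09, 0.68 and 0.91 on the log2(TPM + 1) scale, a mean of 0.56 ± 0.42 (SD, n = 3). Counting error for Xrcc3 was large: the 95% Wilson intervals of its CPM ran from 8.95 to 12.8, from 6.53 to 11.1 and from 5.66 to 10.2 in replicates 1, 2 and 3. These intervals take in counting error alone and treat every count as a separate molecule. Copies made by PCR would make them too narrow.

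The last group acts on joint DNA. Rad52 (ENSMUSG00000030166, plus strand, chr6:119902698-119922828), a protein that anneals single strands, had 199, 112 and 105 counts and 4.56, 4.53 and 3.87 TPM, a mean of 4.32 ± 0.39 (SD, n = 3). Rad54l (ENSMUSG00000028702, minus strand, chr4:116094264-116123690), a motor protein that acts during strand exchange, had 831, 430 and 384 counts and 10.12, 8.56 and 9.12 TPM, a mean of 9.27 ± 0.79 (SD, n = 3). Rad54l was about level with Brca1 and its range lay above that of Rad52 without overlap, with a log2(TPM + 1) difference of 0.95 ± 0.14 (SD, n = 3). Brca1, Brca2, Palb2 and Xrcc2 are also counted among the Fanconi anaemia genes, whose products repair crosslinked DNA.

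**Figure D1:**
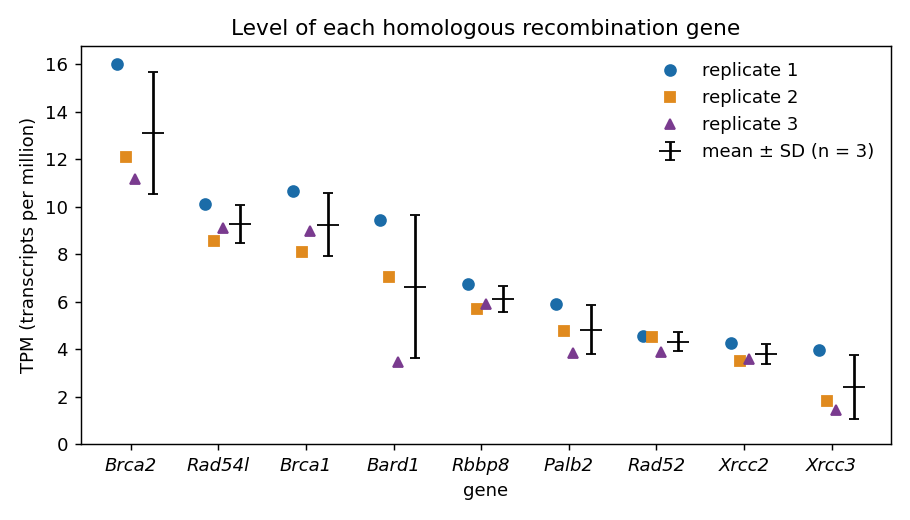
TPM (vertical axis) of the 9 recombination genes (horizontal axis, in order of their mean), with a marker for each replicate and a bar for the mean ± SD (n = 3). Replicate 1 was highest for every gene, and Bard1 and Xrcc3 had the widest spread for their level.

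By mean TPM the order was Brca2, Rad54l, Brca1, Bard1, Rbbp8, Palb2, Rad52, Xrcc2 and Xrcc3. Of the 36 pairs, 30 had the same order in every replicate, and in 21 the ranges did not overlap. Among the 8 neighbours in the order only Brca2 and Rad54l had ranges that did not overlap. This separation rested on the deposited lengths. With the length of each gene held at 1 value, an alternative added after the data had been seen, both ranges overlapped. Brca2 then had 17.7, 15.7 and 6.95 TPM, and Rad54l 11.2, 9.90 and 6.60. In replicate 3 Brca2 also lay below Brca1, which had 7.26 TPM. Rad54l and Brca1, Bard1 and Rbbp8, and Palb2 and Rad52 changed places between replicates, and the position of Bard1 depended most on the library. In replicates 1 and 2 it stood directly below Rad54l and Brca1, and in replicate 3 it lay below Xrcc2.

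Replicate 1 had the highest TPM for 9 of 9 genes, which was also so for 86.5% of expressed protein-coding genes. By CPM it was highest for 5 of 9 and for 46.5% of expressed protein-coding genes. The higher TPM in replicate 1 was therefore shared with most expressed protein-coding genes. Within the common sum of each library, the TPM of these genes added up to 226960, 184574 and 172113 in replicates 1, 2 and 3.

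The spread between replicates was then tested over all genes with edgeR's goodness-of-fit test, which asks whether a gene's estimated counts vary more than the trend for genes of like abundance. None of the 9 genes was called at a Benjamini-Hochberg adjusted p below 0.05, where 1.84% of the 12577 genes tested were called. At an unadjusted p below 0.05 the test passed 1 of the 9, Bard1, against 6.96% of all genes tested. DESeq2 size factors in place of TMM also left 0 of the 9 genes called. A gene that was not called is not thereby shown to vary no more than the trend.

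Bard1 had 123.6, 113.8 and 62.7 CPM, with 95% Wilson intervals of 117 to 130, 106 to 122 and 56.6 to 69.5. Replicate 3 was the low library, by more than the counting error in these intervals. The intervals hold no variation between samples, and the test of that variation is the edgeR fit. The edgeR p was 0.0397 unadjusted and 0.633 adjusted over all genes. The unadjusted edgeR p was 0.0424 without replicate 1, 0.0486 without replicate 2, 0.0405 with DESeq2 size factors and 0.0361 without the filter on low counts. It was 0.607 without replicate 3 and 0.115 with a smooth correction for gene length. Brca2 also had a low share in replicate 3, at 225.6, 208.0 and 137.5 CPM, with an unadjusted edgeR p of 0.278. Replicate 3 had the lowest CPM for 5 of the 9 genes and for 61.5% of expressed protein-coding genes. The coefficient of variation of CPM was 32.7% for Bard1, 24.5% for Brca2 and 17.7% for Xrcc3, and 2.55% to 5.99% for the other 6 genes.

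Length moved with this pattern in part. Bard1 and Brca2 had log2 CPM deviations of -0.61 and -0.44 in replicate 3. They belong to the longest 10% of genes with a mean count of at least 100. In that 10% the 5th and 95th percentiles were -0.84 and 0.03 and the median was -0.27. Brca1 is in the same 10% by length and its deviation was 0.09, above that range. Of the 6 shorter genes, Xrcc2, Rad52 and Rbbp8 deviated by 0.07, 0.04 and 0.01, and Rad54l, Palb2 and Xrcc3 by -0.05, -0.08 and -0.22. The median in replicate 3 was -0.14 for genes of like length to Xrcc2, Rbbp8, Rad54l and Palb2. It was -0.04 for those of like length to Rad52, and Xrcc3 had too few counts for this comparison. The part of length or of RNA quality in the low Bard1 and Brca2 counts of replicate 3 was not tested.

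**Figure D2:**
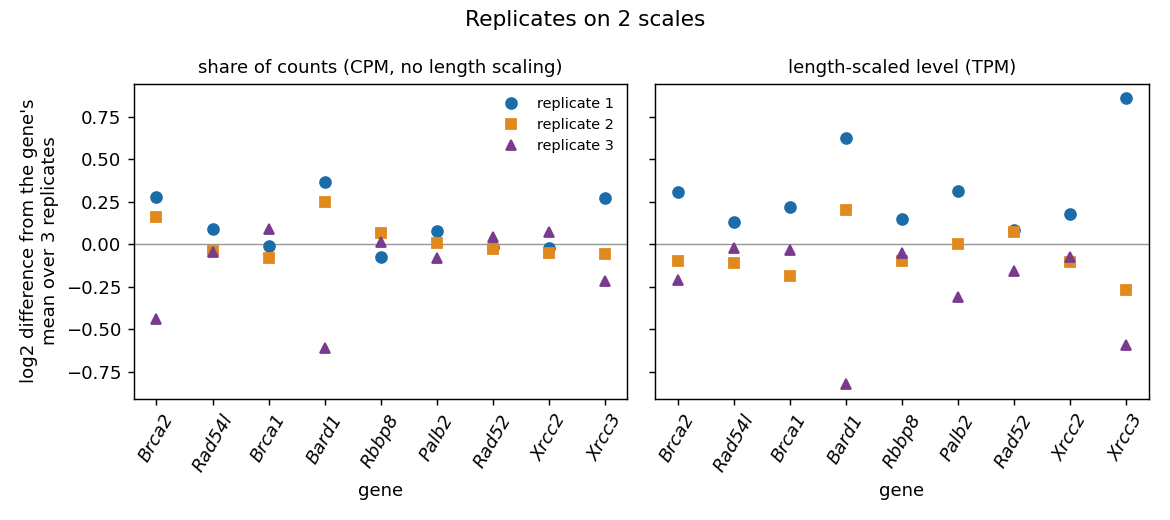
Log2 difference between a replicate and the mean of the same gene over 3 replicates (vertical axis), for CPM (left) and TPM (right), with the 9 genes on the horizontal axis. Bard1 and Brca2 lie lowest in replicate 3 by CPM, at -0.61 and -0.44, whereas by TPM the lowest points are Bard1 and Xrcc3.

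For Brca2 and Xrcc3 the CPM and the TPM told different stories. Part of the difference lay in the transcript length that the deposited tables assign to each gene in each library. This length is a mean over the annotated transcripts weighted by their estimated abundance. In 99.9% of 61677 gene and library entries with several transcripts it fell between the shortest and the longest of them. Any mean, weighted or not, lies in that range, so the weighting itself was not tested. Of these entries 19842 had 0 counts, and for 99.0% of those the length was the plain mean. A shorter value means that shorter transcripts were given a larger share of the gene's estimated abundance. Bounds on the share of the long transcripts follow from it when all other transcripts are taken at their shortest or at their longest length.

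The length of Brca2 was 6069, 6006 and 3883 nt in replicates 1, 2 and 3. Brca2 has 14 annotated transcripts, and the longest, of 10724 and 10517 nt, stand far above the next at 3473 nt. Within these bounds, the long transcripts made up 35.8% to 55.7% of Brca2 transcripts in replicate 1, 34.9% to 55.1% in replicate 2 and 5.66% to 33.9% in replicate 3. The interval of replicate 3 did not overlap the others. These bounds hold no error for the estimated split between transcripts. Replicate 3 was also the library in which the longest 10% of genes with a mean count of at least 100 had a median log2 CPM deviation of -0.27. The part of this lower share of long genes in the Brca2 bounds was not tested. The ratio of the highest to the lowest length was 1.56, larger than for 97.4% of 7339 expressed protein-coding genes with several transcripts and a mean count of at least 100, whose median ratio was 1.10.

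With the length of each gene held at 1 value, an alternative added after the data had been seen, Brca2 had 17.7, 15.7 and 6.95 TPM. Replicate 3 then lay further from the others than in the deposited values of 16.02, 12.09 and 11.18 TPM. The same recalculation gave Bard1, whose length does not vary, 9.09, 8.08 and 2.97 TPM, so part of the shift came from the lengths of other genes in the common total.

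Xrcc3 differed in another library. Its length was 1274, 1751 and 1733 nt, and its 2 longest transcripts, of 2422 and 2300 nt, made up 30.3% to 46.9% of the total in replicate 1 against 59.3% to 71.6% and 58.2% to 70.7% in replicates 2 and 3. Replicate 1 stood alone, and it was also the library in which Xrcc3 TPM was highest. With the length of each gene held at 1 value, Xrcc3 had 3.00, 2.30 and 1.37 TPM, against 10.7, 8.50 and 7.60 CPM. Its own length therefore accounted for only part of the gap between TPM and CPM. The estimates rest on 44 to 122 counts and carry no deposited error for the split between transcripts.

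Brca1 was mostly in its long form in each library. Its 6572 nt transcript made up 88.4% to 91.7%, 91.0% to 93.6% and 78.1% to 84.4% of Brca1 transcripts, lower in replicate 3 without overlap. The limits given for the Brca2 bounds hold here too. For Rad54l the length was 3165, 2794 and 2351 nt, a ratio of 1.35 that exceeded 91.1% of the same genes, but its long transcripts themselves span 1519 to 4571 nt, and such bounds did not tell the libraries apart. The ratio was 1.20 for Rad52, 1.19 for Rbbp8, 1.09 for Xrcc2 and 1.04 for Palb2. Bard1 has 1 annotated transcript of 5659 nt, so its own length did not vary. Its TPM still spread more widely than its CPM, with a ratio of highest to lowest of 2.73 against 1.97.

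**Figure D3:**
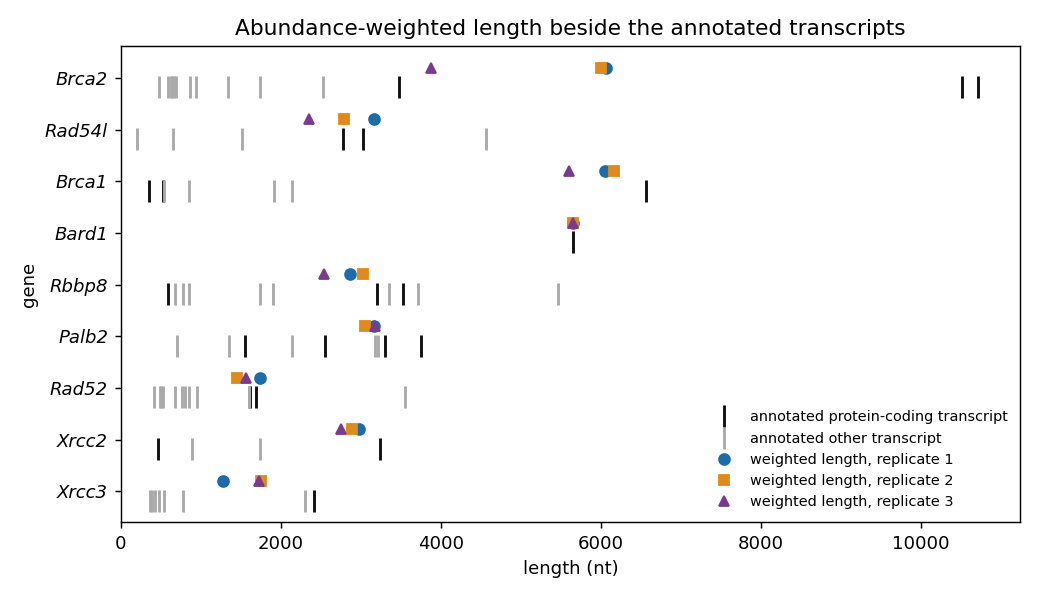
Abundance-weighted length in each replicate (markers, nt) above the lengths of the annotated transcripts (ticks, black for protein-coding) for each of the 9 genes. Brca2 at 3883 nt in replicate 3 and Xrcc3 at 1274 nt in replicate 1 stand apart from the other libraries.

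The genes that work beside the 9 were mostly expressed as well. All 9 genes of end trimming and single-strand binding reached 1 TPM, with a median of 12.5 TPM, from Nbn, a subunit of the MRE11 complex, at 5.17 to Rpa1, the large subunit of the single-strand binding protein RPA, at 30.5. The 6 genes of a list that joins the BRCA1-A complex with the helicase gene Brip1 had a median of 6.85 TPM and ranged from Brip1 at 2.10 to Babam1 at 27.5 TPM.

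The lists of later steps held genes of lower and of higher level. The 8 genes that dissolve or resolve joint molecules had a median of 3.53 TPM, from Rmi2 at 1.00 to Eme1 at 6.25. The 6 genes that counter recombination or serve alternative end joining had a median of 6.11 TPM, from Polq, the polymerase of that end joining, at 1.37 to Fignl1 at 28.9.

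Of the 9 genes of non-homologous end joining, 8 reached 1 TPM, with a median of 2.50 TPM. Xrcc5 and Xrcc6, which encode the Ku dimer, were highest at 24.3 and 16.4 TPM, and Nhej1 was lowest at 0.437. The 5 matched genes of the 53BP1 and shieldin group, which hold back end trimming, had a median of 8.88 TPM, from Shld2 at 1.86 to Rif1 at 45.6. Of 11 meiotic recombination genes, 4 reached 1 TPM: Hormad1 at 4.96, Psmc3ip at 4.55, Mnd1 at 2.95 and Sycp3 at 2.57. That share, 36.4%, was near the 44.1% of all annotated protein-coding genes. Spo11, which cuts DNA in meiosis, had 0 counts in every replicate, and Dmc1, which acts in meiotic strand exchange, had 0.783 TPM. No tested gene of these lists was called as varying between replicates by edgeR, where 1.84% of all genes tested were called. The test took in only 5 of the 11 meiotic genes and 8 of the 9 genes of non-homologous end joining.

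**Figure D4:**
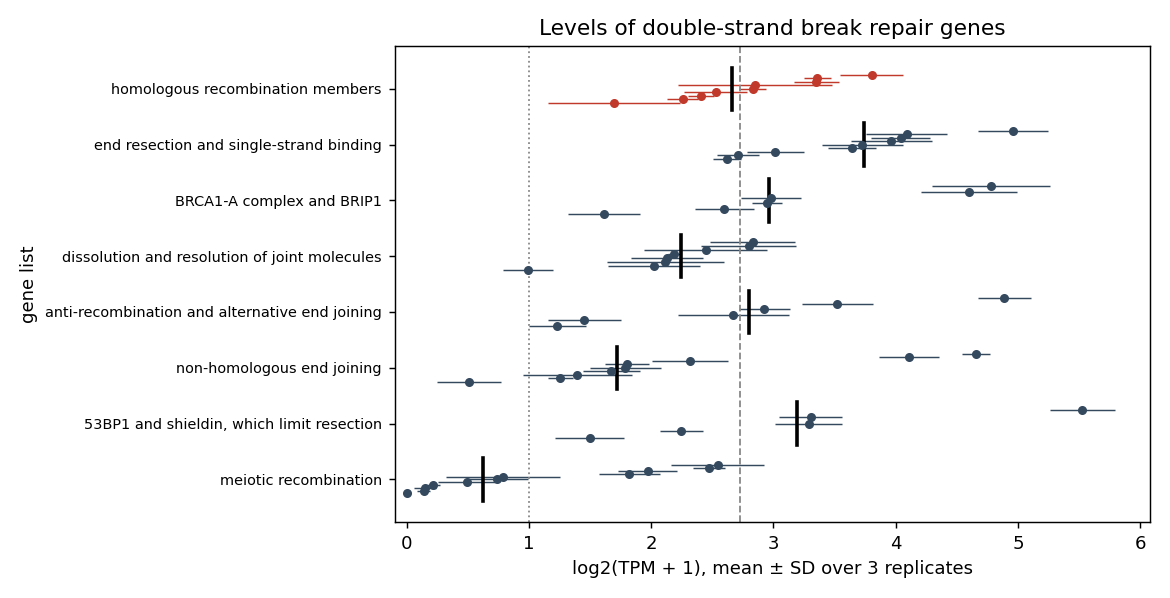
Log2(TPM + 1), mean ± SD over 3 replicates, of every gene (point) in the list of 9 recombination genes (red) and in 7 lists of related genes (vertical axis), with a black bar at each list's median. The dashed line is the median of expressed protein-coding genes, 2.72, the dotted line marks 1 TPM, and 7 of 11 meiotic genes lie left of the dotted line.

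The genes opposite the 5 shared stretches printed above differed widely in level. Nbr1, an autophagy receptor that starts 194 bp from Brca1, had 36.9, 24.17 and 29.49 TPM, above Brca1 in 3 of 3 replicates by 1.59 ± 0.11 (SD, n = 3) on the log2(TPM + 1) scale. The estimated counts of both genes were close, at 1715, 960 and 968 for Nbr1, so the gap lay in the shorter transcripts of Nbr1. Dctn5, a dynactin subunit that starts 56 bp from Palb2, had 16.57, 13.07 and 12.64 TPM and exceeded Palb2 by 1.38 ± 0.11 (SD, n = 3). In these 2 pairs the recombination gene was the lower one in every replicate and the ranges did not overlap.

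The reverse held for Rad54l. Pomgnt1, a glycosyltransferase that starts 150 bp away, had 4.12, 2.67 and 2.34 TPM, below Rad54l by a log2 difference of -1.37 ± 0.24 (SD, n = 3). Zfyve21, which encodes a FYVE-domain protein and starts 297 bp from Xrcc3, had 4.58, 5.32 and 2.86 TPM. It exceeded Xrcc3 in 3 of 3 replicates by 0.67 ± 0.50 (SD, n = 3), although the ranges overlapped. The long noncoding gene 4930540M05Rik, which starts 45 bp from Rad52, had 0 counts in all 3 replicates, so only the Rad52 side was detected at this depth and no fold is given.

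**Figure D5:**
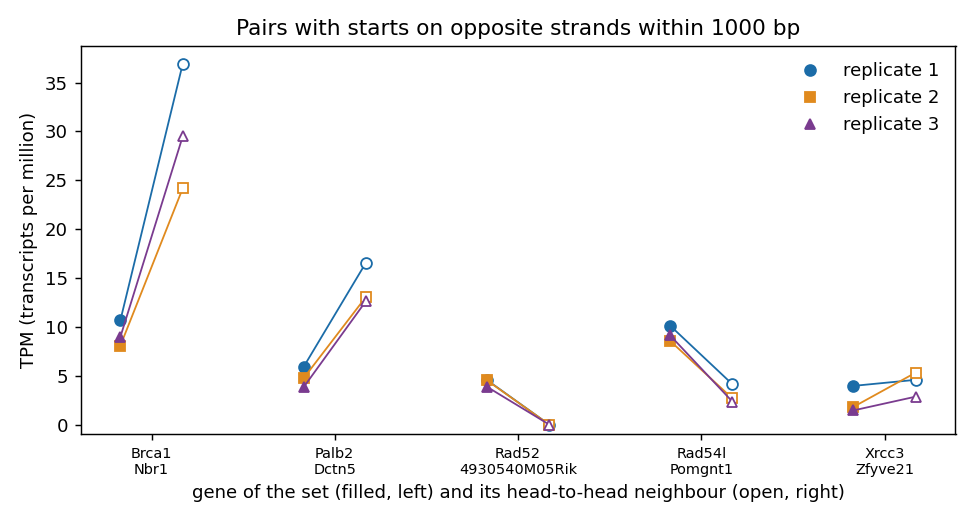
TPM (vertical axis) of the 5 recombination genes with a head-to-head neighbour (filled, left of each pair) and of that neighbour (open, right), with lines joining the values of a replicate. Nbr1 and Dctn5 lie above Brca1 and Palb2, Pomgnt1 and 4930540M05Rik lie below Rad54l and Rad52, and Zfyve21 lies above Xrcc3 in each replicate, with ranges that overlap.

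Overlapping genes may limit some of these values. Klc1, a kinesin light chain gene on the opposite strand with 263, 141 and 89 counts, overlaps Xrcc3 by 4653 bp. Lrrc41, also on the opposite strand, overlaps Rad54l by 2780 bp and had 496, 242 and 267 counts. The overlaps are of whole gene spans, introns included. The libraries were made with a directional kit, but the strand setting of the counting is not given in the sources used here. Whether reads of each gene and its opposite neighbour in the overlap were counted apart is therefore not known. Within Bard1 lies the processed pseudogene Gm16236, with 4, 3 and 1 counts, which is small beside the 363 to 1411 counts of Bard1. Within Brca2, on the same strand, lies the sense intronic gene Gm42531, with 40, 20 and 15 counts. Brca2 had 796 to 2577.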

How the data were processed

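Rows of 3 gene tables were used, 1 for each RNA-Seq replicate. Per the file headers, each gene has a length, an effective length, an estimated count (expected count), TPM and FPKM, the columns of RSEM output. STAR, RSEM and mm10 are named in the submitters' processing notes, and their versions, the annotation release and the strand setting are not given in the sources used here. The authors deposited estimated counts without normalization and TPM scaled by effective length. FPKM, deposited in the same tables, was left aside. Per the labels' protocols, ribosomal RNA was depleted and a directional kit used.

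Of 55487 genes, 55227 matched GENCODE vM21 (GRCm38), the source of names and coordinates, which were not checked against the authors' build. Of 142699 transcripts listed, 141469 matched. Sequences are from RefSeq (GRCm38.p6), where 7 of the 9 promoters were used. Fbxo18 was matched as Fbh1, and Shld3 was not matched.

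The 9 genes and the other lists were chosen with earlier results of these data known. A planned difference between a pair of genes and a planned gene list are not reported here. The rule for named genes allows these genes, the listed genes and head-to-head neighbours. Gm16236, Gm42531, Klc1 and Lrrc41 were named, and the bounds on long transcripts chosen, after their values were seen. Estimated counts were rounded for edgeR 4.0.16 in R 4.3.3 (TMM, filterByExpr, intercept-only design, trended dispersion, goodness-of-fit test with Benjamini-Hochberg adjustment over all genes tested), a step tested on simulated data. Levels were compared as log2(TPM + 1), with a pseudocount of 1. Alternatives were DESeq2 1.42.0 size factors, no filter, a smooth length correction, another pseudocount, CPM, other limits, genes of effective length under 100 nt left out and each replicate left out. One fixed effective length per gene was added after the data had been seen. Depth was 5787357 to 11420425 counts, and p-values measure only the spread between these samples.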

Additional observations from a re-analysis of the deposited data

How the results depend on the processing

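Of 56 alternatives to 10 results, 50 planned and 6 added after the data had been seen, 48 stayed within the replicate spread or within 1.5 times of a count, 8 moved and 0 reversed. At a minimum of 5 TPM, 5 of the 9 genes were expressed. This minimum lay below the median of all expressed protein-coding genes, 5.73 TPM, so many of those would pass it as well. In CPM, which keeps transcript length in the value, the median log2 level was 5.56, Brca2 minus Palb2 2.18, Xrcc2 minus Xrcc3 1.62 and Rad54l minus Rad52 1.90. With genes of effective length under 100 nt left out, the median was 3.96 and Brca2 minus Palb2 1.38, and with a pseudocount of 0.1 the last was 1.42. Leaving out each replicate in turn gave 2.52 to 2.85 for the median and 0.17 to 0.67 for Brca1 minus Bard1, lowest without replicate 3. No gene of the 9 was called under any of the 6 alternatives to the edgeR test, while the number called among all genes was 232, against 231 with DESeq2 size factors, 289 without the filter, 186 with the length correction and 63 to 93 with 1 replicate left out, where fewer samples were tested. At 44 to 122 counts, Xrcc3 was the gene most limited by depth. No paired analysis was possible because only 1 group, the RNA-Seq replicates, was analysed.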
